A study of Mus musculus with 4 samples.

Results

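Among the genes that mark striatal projection neurons, Ppp1r1b, which encodes DARPP-32, rose 3.33-fold in the olfactory bulb of mice lacking Sp8 and Sp9, while Bcl11a, Bcl11b and Foxp2 fell by 1.77-fold to 3.35-fold. The set comprised 9 genes given by symbol (Foxp1, Foxp2, Foxp4, Bcl11a, Bcl11b, Ebf1, Isl1, Ppp1r1b and Adora2a), and all 9 were found among the 20032 genes of the deposited table. The symbols were listed without a threshold on any value, but with earlier results of these data known. Of the 9 genes, 8 reached a mean of 1 FPKM (fragment number scaled by transcript length and by the mapped fragments of the library) over the 4 libraries and were tested. Isl1 did not and is given by its values alone.

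Whole olfactory bulbs were taken at postnatal day 11 from 2 control and 2 DCKO samples, on a mixed background of C57BL/6J, 129S6 and CD1. DCKO mice carried Sp8 Flox/Flox, Sp9 Flox/Flox and Dlx5/6-CIE, a transgene with Cre recombinase under a Dlx5/6 enhancer that is active in GABAergic precursors and their progeny. Bulb cells outside that lineage keep both genes. Controls were littermates without Cre, with floxed alleles not given in the sources used here. Labels do not tie the replicates of a genotype to separate animals, so p-values reflect sample-to-sample spread only. In the controls that spread may hold no difference between animals, while the DCKO libraries differ in sex, as given below.

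Striatal projection neurons and olfactory bulb interneurons are both GABAergic products of the ganglionic eminence. The projection neurons of the striatum divide into a direct pathway, which relies on dopamine D1 receptors, and an indirect pathway, which relies on D2 receptors and on the adenosine receptor encoded by Adora2a. Foxp1, Foxp2 and Foxp4 are forkhead factors, Bcl11a and Bcl11b (CTIP2) are zinc finger factors, and Ebf1 and Isl1 promote the direct pathway fate. DARPP-32 is a cytosolic phosphoprotein that inhibits protein phosphatase-1 when protein kinase A has phosphorylated it, and it is the classic marker of these neurons.

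The libraries summed to between 14632502 and 15400982 scaled fragments. Sp8 fell from 32.0 and 26.7 FPKM to 1.68 and 2.03 FPKM, and Sp9 fell from 24.0 and 30.7 to 0.0674 and 0.236 FPKM. Xist stood at 77.0 FPKM in DCKO replicate 1 and at 0.0252 to 0.0355 FPKM in the other 3 libraries. The DCKO libraries thus differ in sex and come from different animals. Summed markers of GABAergic neurons were at 528 and 484 FPKM in control libraries against 121 and 142 in DCKO, with 4 of 4 genes lower by the test. Markers of bulb granule cells (5 of 5 lower) summed to 544 to 574 FPKM in controls and 66.9 to 94.0 FPKM in DCKO. Mitral and tufted cell markers (7 of 7 higher) summed to 744 to 811 and 1442 to 1621 FPKM, and astrocyte markers (5 of 7 higher) to 691 to 697 and 1101 to 1271 FPKM. Markers of microglia (5 of 7), dividing cells (4 of 5) and endothelial cells (2 of 5) were called higher, and those of dopaminergic periglomerular cells (3 of 5) lower. Markers of oligodendrocytes (6 tested), their precursors (3 tested) and cortical projection neurons (3 tested) gave 0 calls. No gene of any of these lists was at 0. In whole-tissue RNA, fewer cells of a type and less RNA per cell cannot be told apart, and the part of cell numbers in the changes given here was not tested.

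Over the set, 4 of 8 tested genes fell (Foxp2, Bcl11a, Bcl11b and Adora2a), 1 rose (Ppp1r1b) and 3 did not pass (Foxp1, Foxp4 and Ebf1). The test was limma on log2(FPKM + 1), which is two-sided, and a gene passed at an adjusted p below 0.05 (Benjamini-Hochberg, over all 13434 tested genes). By this rule 14.3% of all tested genes fell, 13.0% rose and 27.3% changed in either direction. The median log2 change was -0.29 over the 8 genes and -0.02 over all tested genes. The control and DCKO values did not overlap for the 5 genes that passed, a pattern shared by 71.5% of all tested genes. With 2 samples per group, an exact permutation test of a single gene cannot give a p below 0.333.

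**Figure D1:**
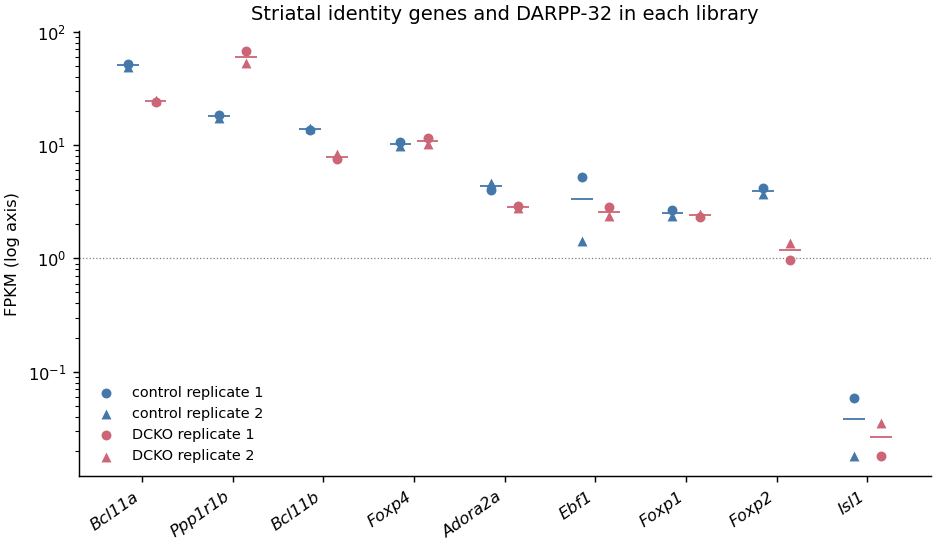
FPKM of the 9 genes (log axis) in each library, with blue for control, red for DCKO, circles for replicate 1, triangles for replicate 2 and short lines for group means. The dotted line marks 1 FPKM. Ppp1r1b lies higher in both DCKO libraries, Bcl11a, Bcl11b, Adora2a and Foxp2 lie lower, control replicate 1 stands apart for Ebf1, and Isl1 is below 0.06 FPKM in every library.

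In the controls, Bcl11a had the highest mean level of the 9 genes (50.5 FPKM), followed by Ppp1r1b (17.9), Bcl11b (13.9) and Foxp4 (10.3 FPKM). The libraries of these 4 genes did not overlap with one another. Adora2a (4.32), Foxp2 (3.93), Ebf1 (3.31) and Foxp1 (2.52 FPKM) came next, and the ranges of neighbours in this group overlapped. In DCKO the order changed to Ppp1r1b (59.8), Bcl11a (24.3), Foxp4 (10.9) and Bcl11b (7.89 FPKM), again without overlap. Adora2a (2.85), Ebf1 (2.59) and Foxp1 (2.39 FPKM) followed with overlapping neighbours, and Foxp2 (1.17 FPKM) lay below them. The ratio of Ppp1r1b to Bcl11a in FPKM went from 0.358 and 0.353 in the controls to 2.81 and 2.14 in DCKO.

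The 3 forkhead genes differed in their response. Foxp2, a repressor found in both striatal pathways and best known for its role in speech and vocal learning circuits, stood at 4.18 and 3.68 FPKM in control libraries against 0.975 and 1.37 in DCKO (chr6:14901349-15441977, + strand, GRCm38, GENCODE M21). Both DCKO values lie below both control values. The mean was 3.35-fold lower, and the log2 change was -1.19 (limma adjusted p = 0.00824, SE 0.15, 95% interval -1.56 to -0.81). The values rest on 685 and 660 estimated control fragments, against 169 and 247 in DCKO. Because Foxp2 is near 1 FPKM in DCKO, the pseudocount of 1 compresses its change. The log2 change was -1.68 with a pseudocount of 0.1 FPKM and -1.78 on the deposited scaled counts.

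Foxp1, which is needed for the differentiation of striatal projection neurons, stood at 2.69 and 2.35 FPKM in control libraries against 2.30 and 2.48 in DCKO (chr6:98925338-99522721, - strand). The groups overlap. Its log2 change was -0.05 (limma adjusted p = 0.756, 95% interval -0.36 to 0.25), and the sign turned without control replicate 1 (0.02). Foxp4, the relative of Foxp1 and Foxp2 that dimerises with them, stood at 10.7 and 9.86 FPKM in control libraries against 11.6 and 10.2 in DCKO (chr17:47867133-47924645, - strand). These groups overlap as well, with a log2 change of 0.07 (limma adjusted p = 0.577, 95% interval -0.17 to 0.32) that turned to -0.01 without DCKO replicate 1. Foxp2 made up 23.8% and 23.2% of the summed FPKM of the 3 genes in the controls and 6.56% and 9.78% in DCKO. Differences between the 3 genes were not tested.

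Bcl11a and Bcl11b fell by similar amounts. Bcl11a, a zinc finger factor of migrating and upper-layer forebrain neurons and a subunit of BAF chromatin remodelling complexes, stood at 51.9 and 49.1 FPKM in control libraries against 23.8 and 24.7 in DCKO (chr11:24078056-24174123, + strand). The values within each genotype are close and the groups are far apart. The log2 change was -1.03 (limma adjusted p = 0.00196, SE 0.07, 95% interval -1.20 to -0.85), a 2.08-fold lower mean. It was the most deeply covered gene of the set, with 3562 and 3707 estimated control fragments, against 1659 and 1869 in DCKO.

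Bcl11b, needed for the differentiation of striatal projection neurons and for their patch organisation, stood at 13.6 and 14.3 FPKM in control libraries against 7.49 and 8.30 in DCKO (chr12:107910403-108003602, - strand). Both DCKO values are lower. The log2 change was -0.75 (limma adjusted p = 0.00665, SE 0.08, 95% interval -0.96 to -0.53), a 1.77-fold lower mean over 1279 to 2470 estimated fragments per library. The calls of both genes held in every alternative in which they were tested. Their intervals overlap, and the difference between them was not tested. T cells also express Bcl11b, and their markers were near 0. T cell markers (5 genes) summed to 0.326 and 0.173 FPKM in the controls, against 0.450 and 0.595 FPKM in DCKO. Of them, 4 were at 0 in control replicate 2 and 1 in each other library. The part of T cells in the Bcl11b values was not tested.

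Beside the GABAergic markers, both Bcl11 genes were lower by less. Slc32a1, the vesicular GABA transporter, changed by -2.95 on the log2 scale and the GABA-synthesising enzyme gene Gad2 by -1.35. The ratio of Bcl11a to Slc32a1 in FPKM went from 0.474 and 0.437 in the controls to 2.03 and 1.59 in DCKO, and that of Bcl11b to Slc32a1 from 0.124 and 0.127 to 0.637 and 0.534. With Gad2 in place of Slc32a1 the groups overlapped: the ratio of Bcl11a to Gad2 was 1.40 and 1.18 in control libraries, against 2.08 and 1.29 in DCKO. These ratios describe the tissue as a whole and carry no test.

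Sp family zinc fingers bind GC boxes. RefSeq start sites (GRCm38.p6) were matched by symbol for 6 of the 9 genes, and the 250 bases upstream of each start were searched for GGGCGG on both strands (CCGCCC on the other). The RefSeq starts of all 6 matched genes lie inside the GENCODE genes given here, so the windows are upstream of an internal start. Those of Bcl11a, Ebf1 and Foxp1 lie wholly inside the gene. The windows of Bcl11b, Foxp4 and Isl1 reach beyond the upstream end of the gene, but most of the Bcl11b window lies inside it. Of 32851 such windows over the genome, 32.7% hold at least 1 match. The windows of Bcl11a, which fell, and Foxp4, which did not pass the test, are shown, and each holds 2 matches. A Foxp1 window with 3 matches, 2 of them before any GENCODE exon, is not shown. The sequences run 5′ to 3′ along the gene's strand from the far end of the window to the last base before any GENCODE exon, with the matches in capitals, at chr11:24080445-24080669 (+ strand) and chr17:47924646-47924882 (- strand).
Bcl11a: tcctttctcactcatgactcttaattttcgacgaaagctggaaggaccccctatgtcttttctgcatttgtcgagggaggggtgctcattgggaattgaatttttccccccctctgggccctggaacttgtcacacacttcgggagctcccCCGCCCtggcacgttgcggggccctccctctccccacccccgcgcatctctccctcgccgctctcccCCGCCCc
Foxp4: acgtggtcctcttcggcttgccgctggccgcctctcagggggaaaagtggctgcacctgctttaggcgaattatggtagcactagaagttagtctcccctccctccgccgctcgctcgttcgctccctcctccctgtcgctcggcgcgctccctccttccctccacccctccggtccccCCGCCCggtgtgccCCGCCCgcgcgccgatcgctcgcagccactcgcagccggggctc
The windows of Bcl11b and Isl1 and both windows of Ebf1 held 0 matches, and the 3 windows of Foxp1 held 1, 0 and 3. A match is a string of letters and not a measured binding site.

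The direct pathway factors Ebf1 and Isl1 gave no call. Ebf1, a helix-loop-helix factor of direct pathway neurons that is also known from olfactory sensory neurons, stood at 5.19 and 1.42 FPKM in control libraries against 2.82 and 2.36 in DCKO (chr11:44617317-45008091, + strand). The controls lie on either side of both DCKO values, and control replicate 1 is the highest of the 4 libraries. The log2 change was -0.11 (limma adjusted p = 0.866, SE 0.45, 95% interval -1.27 to 1.04). Its sign and call depended on which control was kept, at 0.56 with control replicate 1 left out (adjusted p = 0.0863) and -0.79 with control replicate 2 left out (adjusted p = 0.0328).

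Genes of olfactory sensory neurons, whose axons end in the bulb and whose cell bodies lie in the nasal epithelium, were also highest in control replicate 1. Omp, the olfactory marker protein gene, stood at 98.4 FPKM there and at 20.1 to 31.5 FPKM in the other 3 libraries. Cnga2, a subunit of the olfactory transduction channel, stood at 10.2 FPKM there and at 0.206 to 0.303 FPKM elsewhere. The whole list (Omp, Cnga2, Adcy3 and Gnal, with 0 of 4 called) summed to 150 FPKM in control replicate 1 and to 45.3 to 55.1 FPKM in the others. The paralogs Ebf2, Ebf3 and Ebf4 were likewise highest in control replicate 1, at 4.99, 7.24 and 12.1 FPKM, or 9.67, 1.83 and 3.14 times the mean of the other 3 libraries, against 2.36 times for Ebf1. None of these 4 Ebf genes passed the test with all libraries. As with Ebf1, 1 control decided the outcome: without control replicate 2, Ebf2 (-1.91, adjusted p = 0.00122) and Ebf4 (-1.48, 0.00216) were called lower, and without control replicate 1, Ebf3 (0.97, 0.0167) was called higher. Over all tested genes, 2.20% were at least 2 times the mean of the other libraries in control replicate 1. Mural cells also express Ebf1, and their markers (6 genes, 1 higher) summed to 144 to 153 FPKM in the controls and 148 to 185 FPKM in DCKO. The part of either cell type in the Ebf1 values was not tested.

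**Figure D2:**
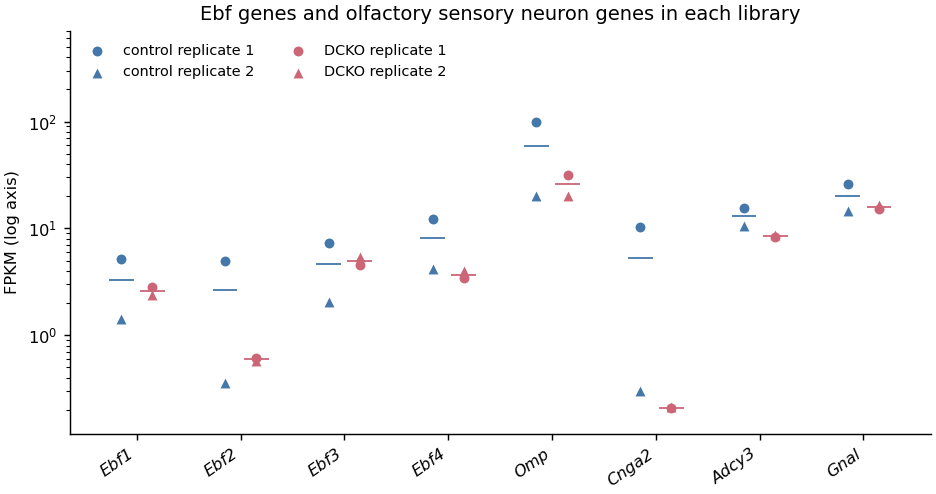
FPKM (log axis) of the 4 Ebf genes and 4 olfactory sensory neuron genes in each library, with colours and symbols for genotype and replicate and short lines for group means. Control replicate 1 is the highest library for all 8 genes, at 98.4 FPKM for Omp and 5.19 FPKM for Ebf1.

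Isl1, the LIM homeobox factor that specifies direct pathway neurons, was listed at 0.0583 and 0.0180 FPKM in control libraries against 0.0182 and 0.0352 in DCKO (chr13:116298281-116309689, - strand). The control values are 3 and 1 fragments, those of DCKO 1 and 2. Every library was at or below 3 fragments, so no fold is given. At this depth neither expression nor a difference in Isl1 was detectable.

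Ppp1r1b was the only gene of the set that rose (chr11:98348404-98357796, + strand). It stood at 18.6 and 17.3 FPKM in control libraries against 66.8 and 52.8 in DCKO. Both DCKO libraries are far above both controls, with DCKO replicate 1 the higher. The log2 change was 1.67 (limma adjusted p = 0.00267, SE 0.13, 95% interval 1.349 to 1.999) and the mean 3.33-fold higher, from 439 and 412 estimated fragments to 1638 and 1418. Of the 13434 tested genes, 26 had a larger positive change. The call held in all 12 alternatives, with log2 changes of 1.51 to 1.84.

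The related protein phosphatase inhibitor gene Ppp1r1a stood at 25.7 and 24.1 FPKM in control libraries against 22.0 and 24.2 in DCKO and was not called (log2 change -0.10, limma adjusted p = 0.360). The ratio of Ppp1r1b to Ppp1r1a in FPKM was 0.722 and 0.718 in control libraries, against 3.03 and 2.18 in DCKO. Tbx21, a T-box factor of mitral and tufted cells, had a log2 change of 1.58, and the ratio of Ppp1r1b to Tbx21 in FPKM was 0.677 and 0.564 in control libraries, against 0.788 and 0.571 in DCKO. The astrocyte filament gene Gfap had a log2 change of 1.89. These were the highest values of their lists, whose median log2 changes were 1.23 (mitral and tufted cells, from 0.80) and 0.67 (astrocytes, from 0.04). The part of these cell types in the Ppp1r1b values was not tested.

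Among the nearest protein-coding neighbours of Ppp1r1b, only Neurod2 was called, while 27.3% of all tested genes were. Neighbours of Foxp1, Foxp2 and Bcl11b were also called, and those of the other members were not. Neurod2, a proneural helix-loop-helix factor of glutamatergic neurons on the - strand 18756 bases away, stood at 1.25 and 2.25 FPKM in control libraries against 9.62 and 5.58 in DCKO (log2 change 1.63, limma adjusted p = 0.0195). Its call was lost without DCKO replicate 1 (adjusted p = 0.0584) and with no filter (adjusted p = 0.0521). Cdk12, 69900 bases away on the same side as Neurod2, did not pass (log2 change -0.15, limma adjusted p = 0.417). On the other side, Stard3, a cholesterol transporter gene 572 bases away, did not pass either (log2 change 0.13, adjusted p = 0.267). It stood at 11.0 and 11.4 FPKM in control libraries against 11.8 and 12.9 in DCKO. Tcap, beyond it, was below the filter. The noncoding 1700003D09Rik overlaps Ppp1r1b on the opposite strand and was below the filter. It stood at 0.261 and 0.167 FPKM in control libraries against 1.21 and 0.892 in DCKO. Without a stated strand setting, reads in the overlap cannot be told apart. These neighbours were named after their values were seen.

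Likeness was taken as the distance between centred log2(FPKM + 1) values over the 4 libraries, with clone, predicted and numeric symbols left out. The tested genes nearest to Ppp1r1b were Dtl (0.07), which acts in DNA replication control, Pdyn (0.10), the dynorphin precursor, and Tmsb15b1 (0.15), a thymosin. Those nearest to Foxp2 were Bambi (0.07), a decoy receptor of TGF-beta signalling, Lrrc16b (0.08) and the sialyltransferase gene St3gal1 (0.09). The pseudocount of 1 compresses the changes of low genes. By mean FPKM, Pdyn was 8.18-fold higher in DCKO, against 3.33-fold for Ppp1r1b. With 4 libraries such distances describe likeness only and carry no test.

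**Figure D3:**
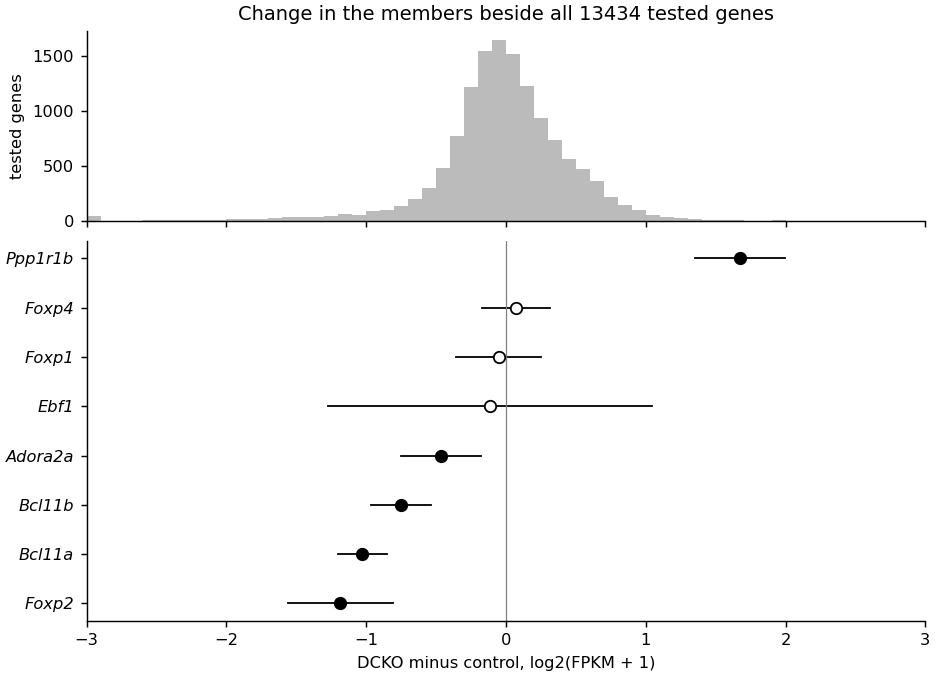
Lower panel: log2 change (DCKO minus control, log2(FPKM + 1)) of the 8 tested genes with 95% confidence intervals, filled where the limma call passed. Upper panel: the same quantity for all 13434 tested genes, with values beyond the axis drawn in the end bins. Ppp1r1b at 1.67 lies in the right tail, Foxp2 at -1.19 and Bcl11a at -1.03 in the left tail, and the Ebf1 interval spans 0 widely.

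Adora2a, the adenosine receptor gene of indirect pathway neurons, stood at 3.99 and 4.65 FPKM in control libraries against 2.91 and 2.79 in DCKO (chr10:75316877-75334784, + strand). Both DCKO values are lower. The log2 change was -0.46 (limma adjusted p = 0.0381, SE 0.11, 95% interval -0.75 to -0.18), a 1.52-fold lower mean over 90 to 141 estimated fragments per library. This was the weakest call of the set. It was lost when any library was left out, at adjusted p = 0.0705 without control replicate 1, 0.196 without control replicate 2, 0.0843 without DCKO replicate 1 and 0.0886 without DCKO replicate 2. It was also lost with no filter (adjusted p = 0.0771) and on scaled counts (0.0557).

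The A1 receptor gene Adora1, the main inhibitory adenosine receptor of the brain, moved the other way, from 17.5 and 19.2 FPKM to 32.6 and 26.4 FPKM (log2 change 0.65, limma adjusted p = 0.0203). The ratio of Adora1 to Adora2a in FPKM was 4.39 and 4.12 in the controls and 11.2 and 9.47 in DCKO. Among 6 tested enzymes and transporters of adenosine, 2 fell and 2 rose, against 14.3% and 13.0% of all tested genes. Their median log2 change was 0.05. Nt5e, which makes extracellular adenosine from AMP, fell (-1.19, adjusted p = 0.00851), as did the nucleoside transporter gene Slc29a2 (-0.70). Entpd2 (0.79) and Entpd1 (0.55), which break down extracellular ATP, rose. The call of Slc29a2 was lost without control replicate 2 (adjusted p = 0.0520), as was that of Entpd2 (0.0610). That of Entpd1 was lost without control replicate 2 (0.126), DCKO replicate 1 (0.0806) or DCKO replicate 2 (0.0787). With no filter, Entpd2 (0.0774) and Entpd1 (0.0639) were not called.

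Other genes of striatal projection neurons were measured from lists that hold no gene of the set. Of 13 tested genes shared by both pathways, 3 fell and 3 rose, against 14.3% and 13.0% of all tested genes. Their median log2 change was -0.22. Gng7, a G protein subunit of striatal receptor signalling, rose from 8.90 and 10.5 FPKM to 26.2 and 24.4 FPKM (1.30, limma adjusted p = 0.00272), and Arpp21, a cAMP-regulated phosphoprotein, rose from 62.1 and 66.4 to 106 and 90.5 FPKM (0.60, adjusted p = 0.0159). Actn2, a cytoskeletal actinin (-1.23), and Rasgrp2, a Rap1 exchange factor (-0.87), fell, with adjusted p of 0.00611 and 0.00946. The remaining 4 of 17 genes were below the filter, among them the transcription factor genes Six3, Zfp503 and Ikzf1.

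Of 6 tested genes of the direct pathway, 2 fell and 1 rose, against 14.3% and 13.0% of all tested genes. Their median log2 change was -0.36. Pdyn rose from 0.522 and 0.497 FPKM to 4.75 and 3.59 FPKM (1.77, limma adjusted p = 0.00396), from 4 estimated fragments in each control to 37 and 30. With a control mean of 0.510 FPKM, it passed the filter only through DCKO, so only a rise could be called. Conversely, Slc35d3, at a mean of 0.578 FPKM in DCKO, passed only through the controls. Slc35d3, needed for D1 receptor trafficking, fell 11.0-fold (5.75 and 6.97 to 0.527 and 0.628 FPKM, -2.22, adjusted p = 0.00168), and the muscarinic receptor gene Chrm4 fell from 10.2 and 10.4 to 2.38 and 3.20 FPKM (-1.58, adjusted p = 0.00317). Drd1a, the D1 receptor gene and the defining marker of this pathway, was below the filter at 0.194 and 0.345 FPKM in control libraries against 0.791 and 0.639 in DCKO.

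Of the 3 tested indirect pathway genes, 2 fell and 0 rose, against 14.3% and 13.0% of all tested genes. Their median was -0.95. Penk, the enkephalin precursor, which bulb granule cells also express, had the largest change of these lists (46.2 and 45.4 to 1.99 and 3.73 FPKM, log2 change -3.64, limma adjusted p = 0.00169). The kainate receptor subunit gene Grik3 fell (-0.95, adjusted p = 0.0374), a call lost without control replicate 2 (0.0599) and with no filter (0.0821). Drd2, the D2 receptor gene, stood at 2.36 and 0.773 FPKM in control libraries against 0.823 and 0.622 in DCKO and did not pass (adjusted p = 0.294). Without control replicate 2, Drd2 was called lower (log2 change -0.97, adjusted p = 0.0225). Gpr6 and Gpr52 lay below the filter.

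**Figure D4:**
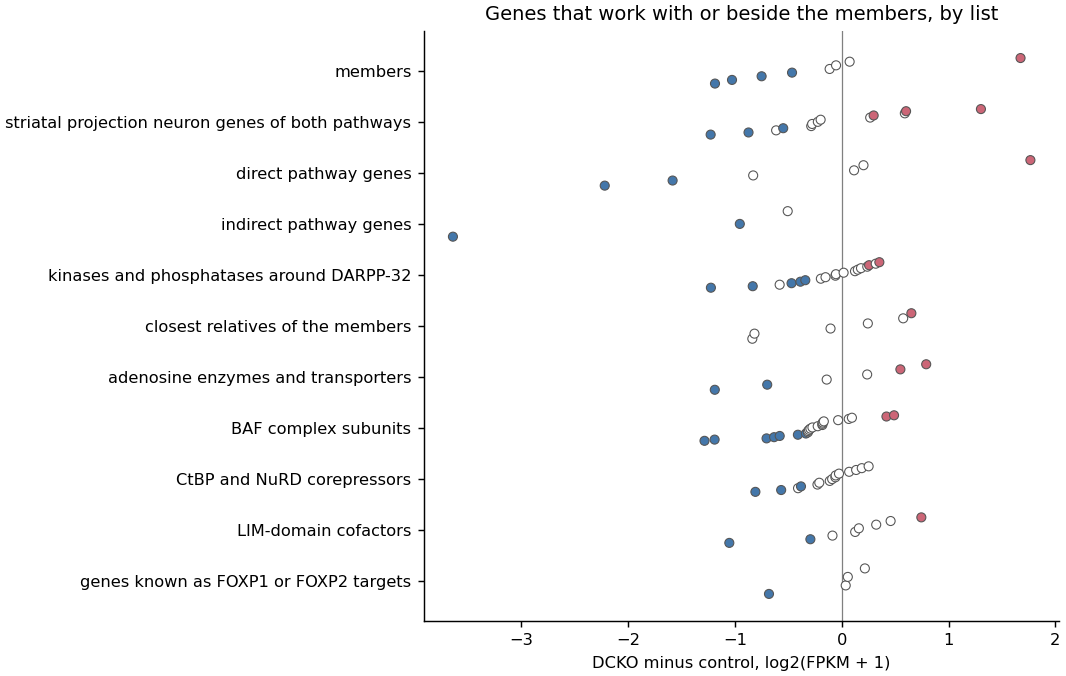
Log2 change (DCKO minus control, log2(FPKM + 1)) of each tested gene, by list, with blue for called lower, red for called higher and white for not called. Members of a list are spread vertically for legibility. The direct pathway list runs from -2.22 (Slc35d3) to 1.77 (Pdyn), and the kinases and phosphatases around DARPP-32 lie between -1.22 and 0.35.

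The kinases and phosphatases that act on or below DARPP-32 had log2 changes between -1.22 and 0.35. Of 18 tested genes, with a median log2 change of -0.06, 5 fell and 2 rose, against 14.3% and 13.0% of all tested genes. Neither rise was firm: 0 genes rose with no filter, with no variance trend or with the replicate block. With median-of-ratios scaling or on scaled counts, 1 rose. Ppp1cc, the gamma catalytic subunit of protein phosphatase-1, fell from 174 and 179 FPKM to 75.1 and 74.8 FPKM (-1.22, limma adjusted p = 0.00114). Ppp3ca, the alpha catalytic subunit of calcineurin, which dephosphorylates DARPP-32 at the protein kinase A site, fell from 83.6 and 82.7 to 45.7 and 46.8 FPKM (-0.83, adjusted p = 0.00248). Cdk5r2, an activator of Cdk5 (-0.47), and the calcineurin subunit gene Ppp3cb (-0.39) had smaller decreases. Both calls were lost without control replicate 1 (adjusted p = 0.0785 and 0.0664) or control replicate 2 (0.110 and 0.0909), and that of Cdk5r2 also with quantile normalization (0.0520), with no filter (0.0815) and with no variance trend (0.0588). None of the 6 protein kinase A subunit genes passed. Prkaca, its main catalytic subunit gene, stood at 77.7 and 76.5 FPKM in control libraries against 83.2 and 85.1 in DCKO (adjusted p = 0.184).

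Bcl11a and Bcl11b work within BAF complexes, and 7 of the 22 other BAF subunit genes tested fell and 2 rose (median -0.28). Over all tested genes, 14.3% fell and 13.0% rose. The number of these BAF genes that rose was 0 with no filter, with no variance trend and on scaled counts. Dpf1, a neuron-specific subunit, fell from 35.8 and 36.9 FPKM to 13.1 and 15.7 FPKM (-1.28, limma adjusted p = 0.00290). Smarcd1 (-1.19), the neuronal subunit gene Actl6b (-0.70) and the ARID subunit gene Arid1a (-0.63) fell too, with adjusted p of 0.00182 to 0.0165. Among 15 CtBP and NuRD corepressor genes, 3 fell and 0 rose (median -0.09). They were Chd3 (-0.81, adjusted p = 0.00417), Hdac2 (-0.57) and Gatad2b (-0.38). Without control replicate 1 or 2 the Hdac2 call (adjusted p = 0.0615 and 0.0561) and the Gatad2b call (0.0988 and 0.112) were lost, that of Hdac2 also with no filter (0.0618).

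Of 8 LIM-domain cofactors, through which Isl1 and other LIM factors act, 2 fell and 1 rose (median 0.14). Over all tested genes, 14.3% fell and 13.0% rose. Lmo4 rose from 40.6 and 39.1 FPKM to 65.0 and 70.0 FPKM (0.75, limma adjusted p = 0.00448), and Ssbp2 fell from 9.46 and 9.14 to 3.73 and 4.22 FPKM (-1.05, adjusted p = 0.00376). The smaller decrease of Ldb1 (-0.29, adjusted p = 0.0359) was lost without control replicate 1 (0.172), control replicate 2 (0.148) or DCKO replicate 1 (0.0689), on scaled counts (0.0577), with quantile normalization (0.0515), with no filter (0.0507) and with no variance trend (0.0588). Of 4 tested genes known as FOXP1 or FOXP2 targets, only Mef2c, a MADS-box factor of neuronal activity, passed. It fell from 37.3 and 38.4 to 22.8 and 23.8 FPKM (-0.68, adjusted p = 0.00462), and the median of the 4 was 0.05. The remaining paralogs of the set, Foxp3, Isl2, Ppp1r1c and Adora3, were below the filter, and Adora2b did not pass (0.58, adjusted p = 0.0529), though it was called higher without control replicate 2 (adjusted p = 0.0423) and with median-of-ratios scaling (0.0477).

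**Figure D5:**
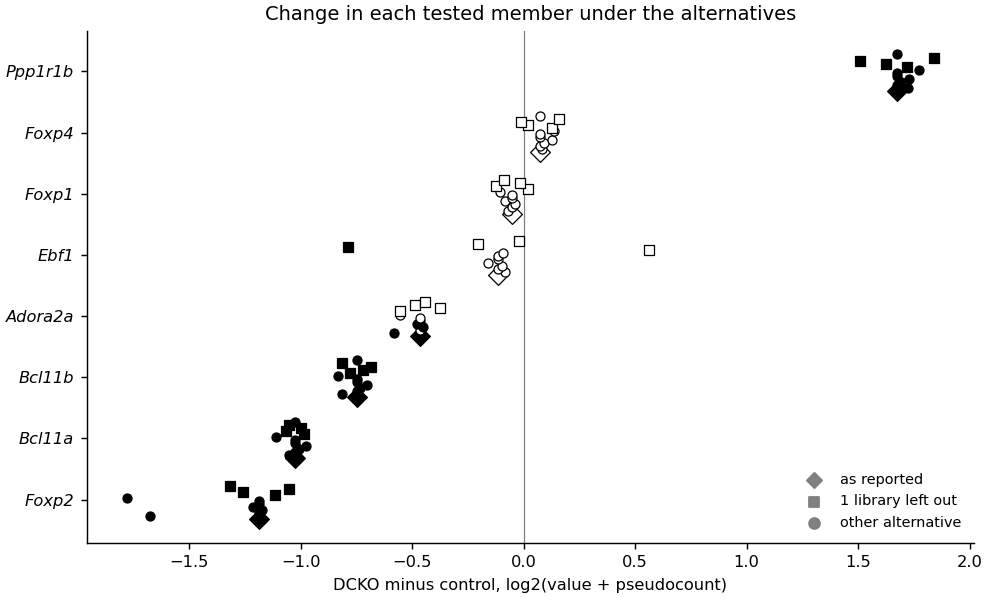
Log2 change of each tested gene as reported (diamonds), with 1 library left out (squares) and under the other alternatives (circles), filled where the limma call passed. Ppp1r1b stays between 1.51 and 1.84 and Bcl11a between -1.11 and -0.97, the Adora2a points are mixed, and Ebf1 runs from -0.79 to 0.56.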

How the data were processed

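Total RNA of 4 mouse olfactory bulb libraries was sequenced. Per the submitters' processing notes, TopHat and Cufflinks 2.1.1 were used with GRCm38.p4; annotation and strandedness: not given in the sources used here. FPKM values were computed by the authors, per the file headers. The columns headed count were deposited as a scaled signal: in each library 98.7% to 98.9% of the non-zero values are, to within 0.05, a whole number times 1 library-specific factor, and these whole numbers are printed as estimated fragments. Columns were mapped through the codes in the sample descriptions, with 0 left over.

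DCKO minus control was fitted with limma 3.58.1 in R 4.3.3 (variance trend, pseudocount 1, mean FPKM of 1 or more). Fold changes on the log2(FPKM + 1) scale understate the change of low genes, and folds of means are ratios of mean FPKM. Genes whose mean was below 1 FPKM in 1 genotype, such as Pdyn, Slc35d3 and Nt5e, passed the filter only through the other genotype. The fit was tested on simulated data. The 9 members, 10 gene lists and 15 marker lists were chosen with earlier results of these data known. Named are all members and, per list, up to 4 called genes of largest change, or the 2 of highest mean where none was called. Other list genes (Drd1a, Drd2, Six3, Zfp503, Ikzf1, Gpr6, Gpr52, Prkaca and the paralogs of the members) were named outside this rule, after their values were seen. The marker genes Slc32a1, Gad2, Tbx21, Gfap, Omp, Cnga2, Adcy3 and Gnal were also named outside it. Alternatives covered the pseudocount, filter, scaling, trend, replicate block, scaled counts and each library left out. Coordinates are from GENCODE M21 and sequences from RefSeq. Foxp1, Foxp2, Foxp4, Bcl11a, Ebf1 and Ppp1r1b overlap other annotated genes. The result of 1 marker list is not reported here.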

Additional observations from a re-analysis of the deposited data

How the results depend on the processing

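Ppp1r1b, Bcl11a, Bcl11b and Foxp2 kept their direction and their limma call in every alternative in which they were tested (12, 12, 12 and 11 settings). Requiring a mean of 5 FPKM left 4 members without Foxp2 or Adora2a, so that 2 rather than 4 were called lower. The members called lower ranged from 3 to 4 with 1 library left out, and the member called higher stayed at 1. With 1 library left out, the log2 change of Foxp1 ran from -0.12 to 0.02, that of Foxp4 from -0.01 to 0.16 and that of Ebf1 from -0.79 to 0.56; the sign turned without control replicate 1 (Foxp1 at 0.018 and Ebf1 at 0.56) or DCKO replicate 1 (Foxp4 at -0.010), and the only call among them was Ebf1 at -0.79, without control replicate 2. Among other named genes, Ebf2 ran from -1.91 (without control replicate 2) to 0.24 (without control replicate 1) and Ebf3 from -0.48 to 0.97. Over all genes, 1926 fell and 1747 rose; with 1 library left out, 1030 to 1875 fell and 806 to 1384 rose, the counts being 1030 and 1159 without control replicate 1 and 1036 and 806 without control replicate 2. In these fits the lone library of a group was assumed to vary like the other group. With the replicate number as a block, 1418 genes fell, 1312 rose and 3 members fell, Adora2a losing its call (adjusted p = 0.0728). Among other named genes the block ended the call of Ldb1 (adjusted p = 0.0726) and called Adora2b higher (0.0368); among list counts it moved the kinases and phosphatases called higher from 2 to 0 and the BAF subunits called higher from 2 to 1. The labels give no pairing of same-numbered libraries. The correlation of deviations from the group means between them was -0.02, which alone cannot show whether they share a batch. Count models (edgeR, DESeq2) were not run, since 1.10% to 1.31% of the scaled values are fractional. Depth limits Isl1, at 1 to 3 fragments, most.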
